A study of Rattus norvegicus with 24 samples.

Results

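The dual-specificity MAP kinase phosphatases (MKPs) are the genes of the Dusp family whose enzymes remove phosphate from both the threonine and the tyrosine of an activated MAP kinase and so switch it off. The 9 members examined were Dusp1, Dusp2, Dusp4, Dusp5, Dusp6, Dusp7, Dusp8, Dusp10 and Dusp16, chosen by symbol from the 21067 genes that the deposited table lists. Each symbol had 1 row. In the table's own coordinates, whose build is not given in the sources used here, Dusp1 (ENSRNOG00000003977) lies on chromosome 10 from 16970626 to 16973418, Dusp5 (ENSRNOG00000014061) on chromosome 1 from 274245184 to 274258595, Dusp7 (ENSRNOG00000010789) on chromosome 8 from 115069095 to 115076130 and Dusp10 (ENSRNOG00000004003) on chromosome 13 from 104284660 to 104321455.

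The tissue was quadriceps femoris, a thigh muscle, from Sprague-Dawley rats, an outbred laboratory strain, and gave 4 groups of 6 libraries. Control rats were fed normally and did no treadmill training. Treadmill rats completed weeks of incremental treadmill training and then ran to exhaustion. Catgut 1 rats first had absorbable collagen thread embedded under ether at the acupoints Bai Hui, Qiang Feng, Han Gou, Xie Qi, Qian Shen and Yang Wa, rested for a week, and then did the same training and exhaustion run. Catgut 2 rats were treated in the same way with Fei Shu added. The rats were 6 weeks old when obtained, and each group was planned with equal numbers of males and females, a sex the labels do not give. The groups limit what can be read from a difference: the trained groups differ from controls in training, exhaustion and handling together, no group was trained without the final run, and no group was anaesthetised or pierced without thread, so these cannot be told apart. In whole tissue, fewer cells of a type and less RNA per cell cannot be told apart either.

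MAP kinases (ERK, p38 and JNK) are switched on by contraction, stretch, growth factors and stress in skeletal muscle, and the MKPs end that signal. Many MKP genes are themselves induced by the pathway they shut down, which makes them feedback brakes. The family falls into an inducible nuclear branch (Dusp1, Dusp2, Dusp4, Dusp5), a cytoplasmic branch that prefers ERK (Dusp6, Dusp7) and a branch that prefers JNK and p38 (Dusp8, Dusp10, Dusp16).

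Promoter sequence was found for 8 of the 9 members in RefSeq's table for GRCr8, the current rat assembly. Dusp4 had no entry. The 250 bases before the start of the gene are shown, 5′ to 3′ on the gene's strand, for the members whose levels differed most between groups. Capitals mark the cAMP response element TGACGTCA, its core TGACG and the CArG box, the site of serum response factor, on either strand. Dusp1 is at chr10:17184603-17184852 and Dusp5 at chr1:262543524-262543773, both on the plus strand, and they are shown because they were higher in all 3 trained groups than in controls. Dusp7 is at chr8:115887841-115888090 and Dusp10 at chr13:98145643-98145892, both on the plus strand, and they are shown because they moved in opposite directions between the treadmill and catgut groups.
Dusp1: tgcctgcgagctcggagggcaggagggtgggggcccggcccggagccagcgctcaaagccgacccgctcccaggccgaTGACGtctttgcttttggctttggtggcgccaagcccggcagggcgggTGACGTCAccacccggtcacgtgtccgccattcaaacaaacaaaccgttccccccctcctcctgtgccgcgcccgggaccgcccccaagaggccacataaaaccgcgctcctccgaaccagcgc
Dusp5: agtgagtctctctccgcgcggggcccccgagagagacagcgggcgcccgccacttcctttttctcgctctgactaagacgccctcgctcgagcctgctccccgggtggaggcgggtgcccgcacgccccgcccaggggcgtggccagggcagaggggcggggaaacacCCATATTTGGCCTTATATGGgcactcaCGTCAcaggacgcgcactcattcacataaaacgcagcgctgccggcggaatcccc
Dusp7: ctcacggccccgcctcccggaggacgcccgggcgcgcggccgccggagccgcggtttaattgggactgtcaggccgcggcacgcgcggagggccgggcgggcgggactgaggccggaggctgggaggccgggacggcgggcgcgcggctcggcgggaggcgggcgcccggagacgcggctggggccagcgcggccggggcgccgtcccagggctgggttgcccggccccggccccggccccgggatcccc
Dusp10: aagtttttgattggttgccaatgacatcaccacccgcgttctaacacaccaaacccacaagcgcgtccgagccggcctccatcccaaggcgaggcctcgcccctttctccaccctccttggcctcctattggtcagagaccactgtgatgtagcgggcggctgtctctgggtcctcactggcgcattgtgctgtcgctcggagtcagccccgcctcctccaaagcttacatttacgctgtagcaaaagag

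The Dusp1 window held 1 full cAMP response element, whose first base lay 124 bases before the start. Of 33469 rat promoter windows of the same length, 1.59% held this element. A further TGACG core in Dusp1 lay 172 bases before the start, and the full element itself contains this core on each strand. The Dusp5 window held 2 CArG boxes side by side, at 82 and 72 bases before the start, and 1.5% of all windows held at least 1. It also held a TGACG core 55 bases before the start. The TGACG core was present in 4 of 8 members (Dusp1, Dusp2, Dusp5 and Dusp16), against 18.2% of all windows. The Dusp7 and Dusp10 windows held neither element, and the Dusp7 window was 84.4% G and C. The AP-1 site TGANTCA was in 0 of 8 members (6.34% of all windows) and the FoxO site GTAAACA in 0 of 8 (3.21%). The E-box CACGTG, which clock proteins bind, was in Dusp1 and Dusp2 (5.59% of all windows), and the Sp1 box GGGCGG in 6 of 8 members (30.5%). A match describes letters in this window only.

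The total count per library ranged from 45945938 to 78278080, with the deepest libraries in the control group. Muscle fibre markers summed to between 62360 and 85820 FPKM (fragments scaled to transcript length and to the mapped fragments of the library) in every library. The lymphocyte markers, of which 3 of 6 listed had a mean under 0.1 FPKM, summed to at most 1.54 FPKM. Liver transcripts such as Alb summed to more than 1 FPKM in 5 libraries, control replicate 2 (198 FPKM) and 4 of the treadmill libraries (3.76 to 307 FPKM), and to at most 0.725 FPKM in the catgut libraries. The summed red cell markers had a control median of 374.5 FPKM and medians of 568, 663 and 646 FPKM in the treadmill, catgut 1 and catgut 2 groups, and the summed smooth muscle and pericyte markers had medians of 113.3 against 169, 161 and 198 FPKM. The macrophage and leukocyte markers had medians of 6.08 to 6.32 FPKM in the 4 groups. The part of these cells in the results was not tested. The Y-linked genes Eif2s3y and Kdm5d exceeded 0.5 FPKM in 3 of 6 libraries of the control, treadmill and catgut 1 groups, and in 2 of 6 libraries of catgut 2.

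All 9 members passed the filter on low values, a mean of at least 0.1 FPKM over the 24 libraries, and they spanned almost the whole range of abundance in muscle. FPKM is per transcript length, so levels may be set beside each other. Dusp1 was by far the most abundant, with a mean of 146 FPKM over the 24 libraries, higher than 96.9% of the 14772 genes tested. Dusp7 (11.8 FPKM) and Dusp10 (11.8 FPKM) came next with almost equal means. Dusp8 followed at 5.79 FPKM, then Dusp6 at 3.46 FPKM and Dusp16 at 3.16 FPKM, a pair whose order changed between groups. Dusp5 averaged 0.971 FPKM, Dusp4 0.581 FPKM and Dusp2 0.165 FPKM. Dusp1 made up a median of 66.9% of the summed FPKM of the 9 members in control libraries and of 79.8%, 80.9% and 83.0% in the treadmill, catgut 1 and catgut 2 libraries.

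The counts behind these levels set how firmly each can be read. Dusp1 had 4220 to 34203 counts per library, Dusp5 had 34 to 330, and Dusp2 had 0 to 46. The commonest count above 0 in the table is 4, and detection was set at more than 12 counts, or 3 times that smallest step. By that limit Dusp2, an immune-enriched nuclear phosphatase, was detected in 16 of 24 libraries, and the other 8 members in all 24. Dusp9, a further MKP of the ERK-directed branch, had at most 4 counts and was above 0 in 3 libraries, which is under the limit, so it was not tested.

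**Figure D1:**
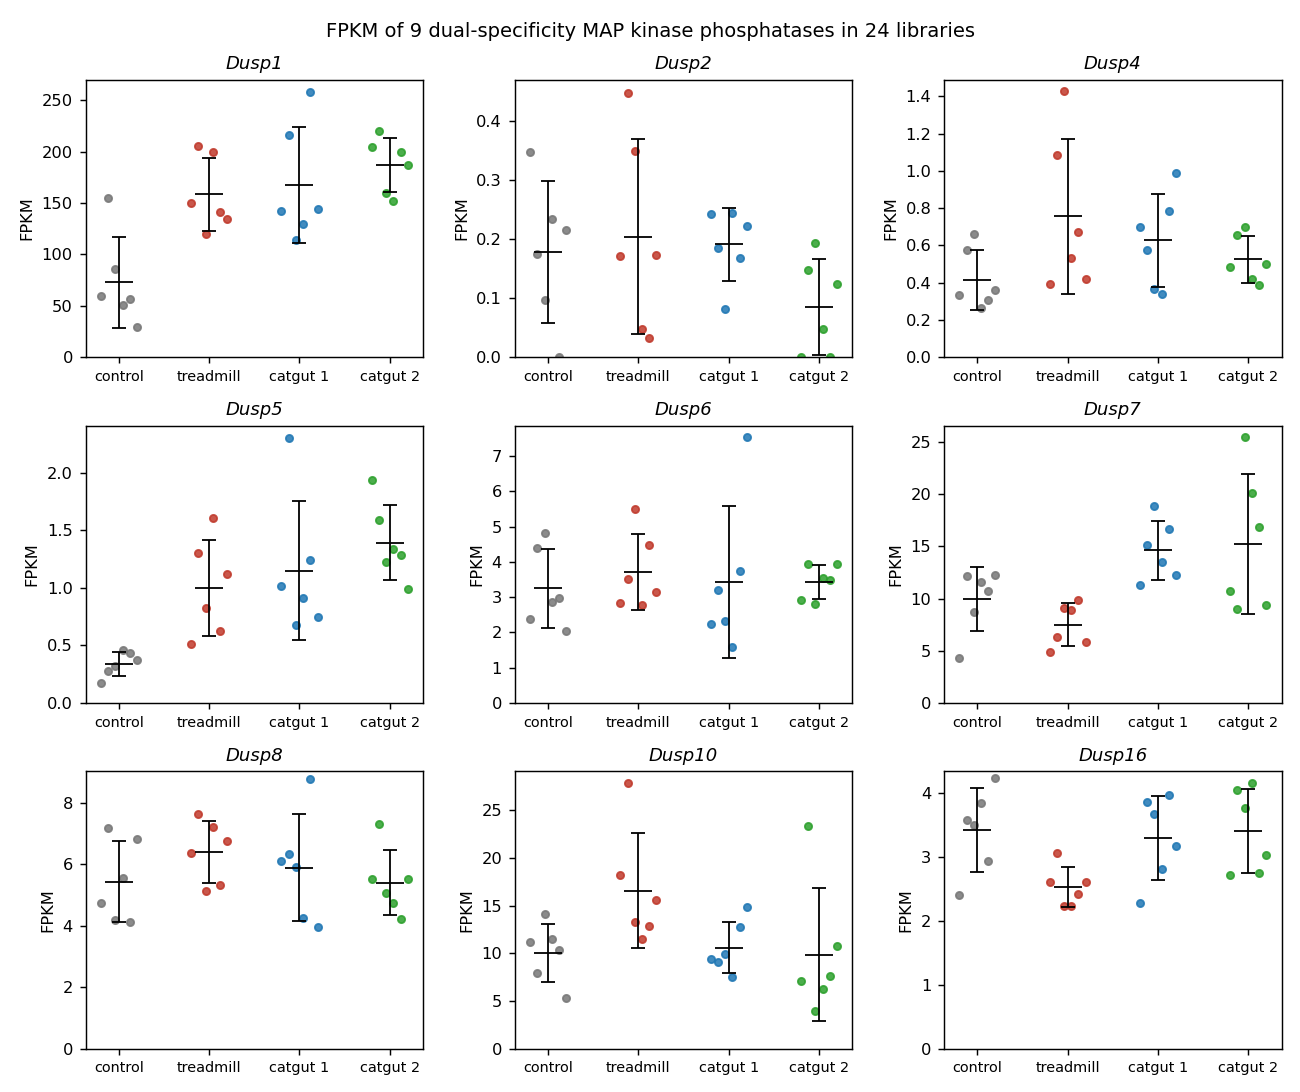
FPKM of each MKP gene (one panel per gene, linear axes from 0) in the 6 libraries of each group; points are libraries in replicate order, bars the mean ± SD. Every trained library lies above every control library for Dusp5, and Dusp7 lies higher in the 6 catgut 1 libraries than in any treadmill library.

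Comparing treadmill with control rats asks what training and the final run did to the muscle. Of the inducible branch, Dusp5, Dusp1 and Dusp4 were at 2.94, 2.18 and 1.82 times the control mean, and Dusp2 at 1.14 times (unadjusted p 0.835 in edgeR). The p38 and JNK phosphatase Dusp10 was at 1.64 times. The study called a gene changed when the mean FPKM of one group exceeded that of the other more than 1.5 times and p, without adjustment, was below 0.05. With p from edgeR, 4 of 9 members met this criterion as higher (Dusp1, Dusp4, Dusp5 and Dusp10), against 1.77% of all genes tested, and 0 of 9 as lower, against 1.08%. In either direction 2.85% of all genes met it. By adjusted p under 0.05 in edgeR there were 0 of 9 members, against 0.0542% of all genes (0.0406% higher and 0.0135% lower), while 5 of 9 had an unadjusted p under 0.05 (9.12% of all genes). By adjusted p, DESeq2 gave 2 members and limma 0. Shares of all genes are those of edgeR here and below, so counts from DESeq2 and limma cannot be set against them. The median fitted log2 fold change of the members was 0.26, against -0.00 for all genes.

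Dusp5, a nuclear phosphatase specific for ERK, had 0.178, 0.348 and 0.460 FPKM as the lowest, median and highest control value and 0.511, 0.971 and 1.61 FPKM in treadmill libraries. The groups did not overlap, which held for 0.325% of all genes in this direction and for 0 of 9 members and 0.122% of all genes in the other. The fitted log2 fold change was 1.59 ± 0.31 (SE), with an adjusted p of 0.166 in edgeR and an exact permutation p of 0.00216, the smallest that 924 arrangements can give.

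Dusp1, the first MKP described and an immediate-early gene that acts on p38, JNK and ERK, had 29.1, 58.2 and 154.6 FPKM in controls and 119.9, 145 and 206 FPKM in treadmill libraries. The highest control value belonged to replicate 2, the control library with liver transcripts, and it alone reached into the treadmill range. The fitted log2 fold change was 1.13 ± 0.33 (SE), with an adjusted p of 0.388 in edgeR and an exact permutation p of 0.0108. Without control replicate 2 it was 1.53, and Dusp1 then passed the adjusted threshold. With all libraries that hold liver transcripts left out it was 1.69, from 2 treadmill libraries.

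Dusp10, which prefers p38 and JNK, had 5.33, 10.8 and 14.1 FPKM in controls and 11.6, 14.5 and 27.8 FPKM in treadmill libraries, so 3 treadmill libraries lay above every control. The log2 fold change was 0.73 ± 0.21 (SE) with an adjusted p of 0.388 in edgeR. Treadmill replicate 2 held the highest Dusp10 value, liver transcripts (23.4 FPKM summed) and the highest sum of macrophage and leukocyte markers (24.04 FPKM, against a treadmill median of 6.08 FPKM). Without this library the log2 fold change was 0.59 and the criterion was no longer met. Dusp4, which acts on ERK and JNK in the nucleus, was at 0.756 ± 0.416 FPKM (SD, n = 6) in treadmill and 0.416 ± 0.162 FPKM (SD, n = 6) in control libraries. It met the criterion with a log2 fold change of 0.86 ± 0.36 (SE), its exact permutation p was 0.0736, and it kept the criterion in 6 of the 12 fits that leave out a library. With the libraries that hold liver transcripts left out, Dusp4 was at 0.30 and Dusp10 at 0.55 on the log2 scale, and neither met the criterion. That fit holds only 2 treadmill libraries, so liver transcripts and fewer libraries cannot be told apart. The counts of Dusp4 were 64 to 337.

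Dusp16, a phosphatase of JNK and p38, had a treadmill mean of 2.53 ± 0.31 FPKM (SD, n = 6) against 3.42 ± 0.656 FPKM (SD, n = 6) in controls. The log2 fold change was -0.41 ± 0.14 (SE) with an unadjusted p of 0.0106 in edgeR, but the ratio of 0.741 did not pass the size part of the criterion. Dusp7, which holds back ERK in the cytoplasm, had a treadmill mean of 7.49 FPKM and a control mean of 9.98 FPKM, with a log2 difference of -0.37 ± 0.26 (SE). The rest had an unadjusted p over 0.05 in edgeR: Dusp6, the classic ERK feedback phosphatase, at 0.23 ± 0.24, Dusp8, a JNK and p38 phosphatase, at 0.26 ± 0.17, and Dusp2 at 0.17 ± 0.79 on the log2 scale.

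**Figure D2:**
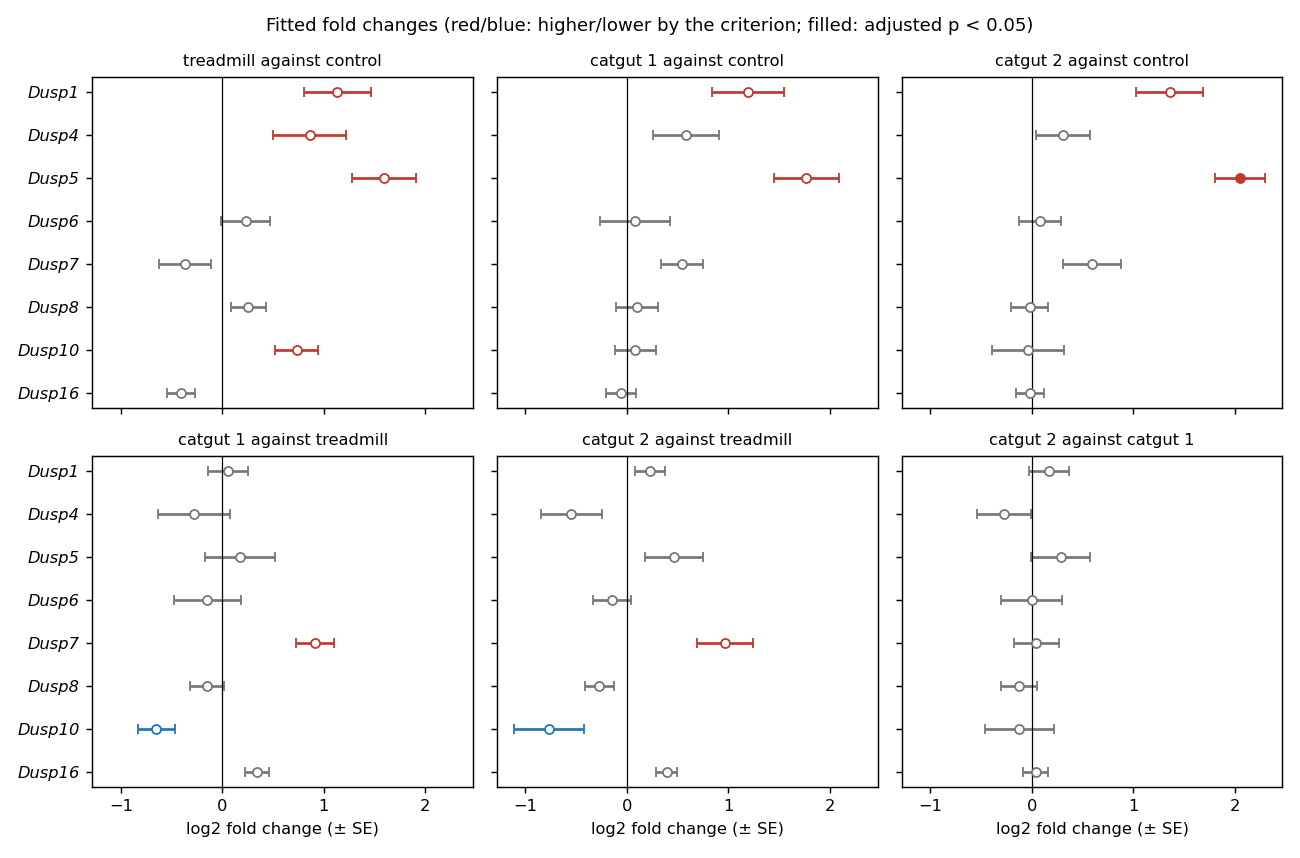
Fitted log2 fold change ± SE of 8 members in the 6 comparisons (Dusp2 is left out because its SE reached 0.99); red and blue mark members higher or lower by the study's criterion, and the 1 filled point an adjusted p under 0.05. Dusp1 and Dusp5 lie to the right in all 3 comparisons with control, and Dusp7 and Dusp10 lie on opposite sides of 0 in the comparisons with treadmill.

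Each catgut group was set against controls in the same way. These comparisons share the control libraries with each other and with the treadmill comparison, so the values stand side by side and are not independent. In catgut 1, 2 of 9 members met the criterion as higher (Dusp1 and Dusp5), against 2.32% of all genes, and 0 of 9 as lower, against 2.3%, with 4.62% of all genes in either direction. By adjusted p there were 0 members in edgeR (0.0203% of all genes, all of them higher), 1 in DESeq2 and 0 in limma, and 3 of 9 had an unadjusted p under 0.05 (9.84% of all genes). In catgut 2, Dusp1 and Dusp5 met it as higher, against 3.52% of all genes, and 0 of 9 as lower, against 2.43%, with 5.95% of all genes in either direction. In edgeR Dusp5 was the 1 member with an adjusted p under 0.05 there, while DESeq2 and limma each gave 2, Dusp1 and Dusp5. The edgeR call compares with 0.508% of all genes (0.325% higher and 0.183% lower), and 2 of 9 members had an unadjusted p under 0.05, against 16.4%.

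Dusp5 had 0.676, 0.967 and 2.30 FPKM as the lowest, median and highest value in catgut 1 and 0.993, 1.31 and 1.93 FPKM in catgut 2. No library of either group overlapped the controls, which held for 0.318% and 0.724% of all genes in this direction. In the other direction it held for 0 of 9 members, against 0.0745% and 0.366% of all genes. In catgut 1 the log2 fold change was 1.77 ± 0.32 (SE), with an adjusted p of 0.0998 in edgeR. In catgut 2 Dusp5 rose by 2.05 ± 0.25 (SE) on the log2 scale, with an adjusted p of 0.00461 in edgeR, the 5th smallest p of all genes tested. The exact permutation p was 0.00216 in each, the smallest possible. The call in catgut 2 was kept in all 12 fits that leave out a library, and was not made with the replicate number as a block (adjusted p = 0.0849 in edgeR). The exact test gave 0.199 after Benjamini-Hochberg adjustment. Dusp5 already had the smallest p of that test, so its adjusted value depends on how many genes share it. It cannot show whether the call holds.

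Dusp1 had 113.6, 143 and 258 FPKM in catgut 1 and 152, 193 and 220.1 FPKM in catgut 2. In catgut 2, 5 of 6 libraries lay above every control, and the lowest lay under the highest control, replicate 2. The log2 fold change was 1.19 ± 0.35 (SE) in catgut 1 and 1.36 ± 0.33 (SE) in catgut 2, with adjusted p of 0.342 and 0.0861 in edgeR. Without control replicate 2 the 2 values were 1.59 and 1.75, and the second passed the adjusted threshold (0.00798).

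Dusp7 had 11.3, 14.3 and 18.9 FPKM in catgut 1 and 8.98, 13.8 and 25.5 FPKM in catgut 2, against 4.34, 11.2 and 12.3 FPKM in controls. Its ratio to the control mean was 1.46 in catgut 1, just under the limit of the criterion (log2 fold change 0.55 ± 0.21 SE, unadjusted p 0.0207 in edgeR), and 1.53 in catgut 2, where the unadjusted p was 0.0585. Of the 12 fits that leave out a library, Dusp7 met the criterion in 5 for catgut 1 and in 4 for catgut 2. The fit without control replicate 2 was among these in both comparisons, and the fit without control replicate 1 in neither. Dusp10 and Dusp16 differed from the controls by less than their SE, with log2 differences of 0.08 ± 0.20 and -0.06 ± 0.15 in catgut 1 and of -0.04 ± 0.36 and -0.02 ± 0.14 in catgut 2 (SE). Dusp4 was at 0.58 ± 0.32 in catgut 1 and 0.31 ± 0.27 in catgut 2, Dusp6 at 0.08 ± 0.34 and 0.08 ± 0.20, and Dusp8 at 0.10 ± 0.21 and -0.02 ± 0.18, on the same log2 scale. Dusp2 was at 0.13 ± 0.68 and -1.08 ± 0.99.

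Setting each catgut group against the treadmill group asks whether thread embedding changed the trained muscle. The inducible members Dusp1 and Dusp5 did not meet the criterion here: their log2 differences were 0.06 ± 0.20 and 0.17 ± 0.35 for catgut 1 and 0.23 ± 0.15 and 0.46 ± 0.29 for catgut 2 (SE). The members that did were Dusp7, which was higher, and Dusp10, which was lower, in both catgut groups. For catgut 1 this is 1 of 9 members higher, against 1.13% of all genes, and 1 of 9 lower, against 1.99% (3.12% in either direction). For catgut 2 it is 1 of 9 higher, against 1.96%, and 1 of 9 lower, against 1.79% (3.76%). By adjusted p, edgeR called 0 members, against 0.0474% of all genes for catgut 1 (0.0338% higher, 0.0135% lower) and 0.237% for catgut 2 (0.108% higher, 0.129% lower). limma called 0. DESeq2, for which no share of all genes is given, called 2 in each, Dusp7 and Dusp10 for catgut 1 and Dusp7 and Dusp16 for catgut 2. In each, 3 of 9 had an unadjusted p under 0.05 in edgeR (6.93% and 10.7% of all genes).

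Dusp7 had 4.86, 7.59 and 9.88 FPKM as the lowest, median and highest treadmill value. All 6 catgut 1 libraries lay above it, a separation in this direction that 0.298% of all genes showed (0.115% in the other). Of the catgut 2 libraries, 4 of 6 did, and full separation was shown by 0.582% of all genes upward and 0.454% downward. The log2 fold change was 0.91 ± 0.19 (SE) for catgut 1, with an adjusted p of 0.149 in edgeR and an exact permutation p of 0.00216. For catgut 2 it was 0.96 ± 0.28 (SE), with an adjusted p of 0.202 in edgeR and an exact permutation p of 0.0130. Dusp7 met the criterion in all 12 fits that leave out a library, in each comparison.

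Dusp10 had 7.50, 9.65 and 14.8 FPKM in catgut 1 and 3.94, 7.40 and 23.4 FPKM in catgut 2, so its ranges overlapped the treadmill range of 11.6 to 27.8 FPKM. In catgut 2, 5 of 6 libraries lay below every treadmill library, and replicate 2, at 23.4 FPKM, lay within the treadmill range. The log2 fold change was -0.65 ± 0.18 (SE) for catgut 1 with an adjusted p of 0.346 in edgeR, and -0.76 ± 0.34 (SE) for catgut 2 with an adjusted p of 0.451. For catgut 1 the criterion was lost without catgut 1 replicate 4 or treadmill replicate 2. It was lost in both comparisons with the 4 liver-bearing treadmill libraries left out, at -0.51 for catgut 1 and -0.64 for catgut 2. These fits hold only 2 treadmill libraries, so liver transcripts and fewer libraries cannot be told apart. For catgut 2 the criterion held in 4 of 12 fits that leave out a library, and the log2 fold change was -1.17 without catgut 2 replicate 2. Like treadmill replicate 2, that library held the highest macrophage and leukocyte marker sum of its group (14.1 FPKM). In the other groups the library highest in Dusp10 did not: control replicate 3 had 4.26 FPKM (highest 10.1 FPKM) and catgut 1 replicate 6 had 5.89 FPKM (highest 8.66 FPKM). The part of these cells in the Dusp10 values was not tested.

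Dusp16 had 2.23, 2.52 and 3.06 FPKM in treadmill libraries, 2.29, 3.42 and 3.97 FPKM in catgut 1 and 2.71, 3.40 and 4.16 FPKM in catgut 2. The log2 fold change was 0.35 ± 0.12 (SE) for catgut 1 and 0.39 ± 0.10 (SE) for catgut 2, with adjusted p of 0.485 and 0.166 in edgeR. DESeq2 gave an adjusted p of 0.0318 for catgut 2. The ratios of 1.3 and 1.35 were under the criterion's limit. The remaining members stayed under it as well. Dusp4 was at -0.28 ± 0.36 for catgut 1 and -0.55 ± 0.30 for catgut 2, Dusp6 at -0.15 ± 0.33 and -0.15 ± 0.19, and Dusp8 at -0.15 ± 0.17 and -0.27 ± 0.14 (log2 difference ± SE). Dusp2 was at -0.04 ± 0.56 and -1.24 ± 0.89.

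**Figure D3:**
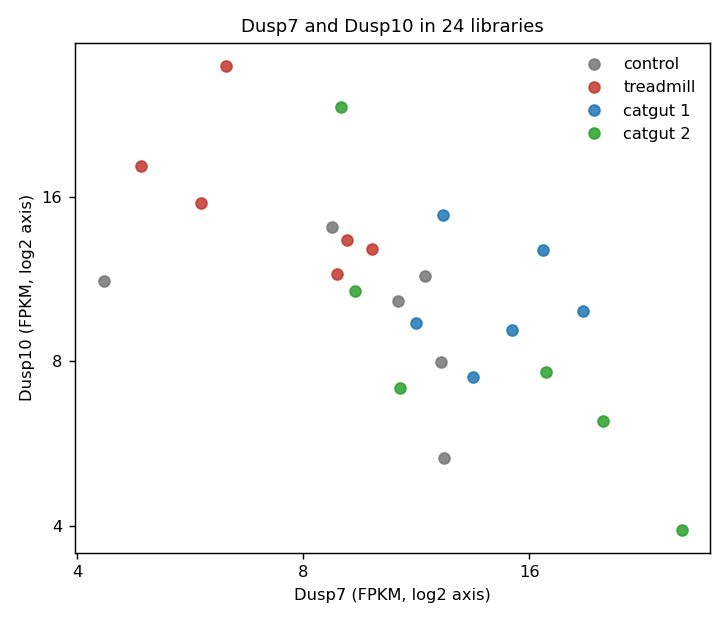
Dusp7 (x) against Dusp10 (y), FPKM on log2 axes, 1 point per library in 4 colours for the groups. The 6 treadmill libraries lie in the upper left part, with Dusp7 at most 9.88 and Dusp10 at least 11.6 FPKM, and catgut 2 replicate 3, with the highest Dusp7 and the lowest Dusp10 value, at the lower right.

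Dusp7 and Dusp10, at 11.8 FPKM each over all libraries, exchanged rank between groups. Dusp7 was the more abundant in 4 of 6 control, 0 of 6 treadmill, 5 of 6 catgut 1 and 4 of 6 catgut 2 libraries. The log2 ratio of Dusp7 to Dusp10 ran from -2.14 to -0.38 in treadmill libraries, from -0.27 to 0.93 in catgut 1, from -1.38 to 2.70 in catgut 2 and from -1.37 to 1.21 in controls. The treadmill and catgut 1 ranges did not overlap, and the other ranges did. This ratio was chosen after its values were seen and was not tested.

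Between the catgut groups, where the added point Fei Shu is the question, the members did not differ by the criterion (0 of 9, against 1.25% of all genes, 0.9% higher and 0.345% lower). No member's libraries were fully apart, against 0.0542% of all genes upward and 0.108% downward. By adjusted p there were 0 of 9 in edgeR (0.00677% of all genes), in DESeq2 and in limma, and 0 of 9 at an unadjusted p under 0.05 in edgeR (3.26% of all genes). The log2 differences, catgut 2 minus catgut 1, lay between -0.27 and 0.29 for the 8 members other than Dusp2, with SE of 0.12 to 0.34, so a difference of that size could not be told from 0. Dusp2 was at 0.0855 ± 0.0811 FPKM (SD, n = 6) in catgut 2 and 0.191 ± 0.062 FPKM (SD, n = 6) in catgut 1. Its log2 difference was -1.21 ± 0.79 (SE) in edgeR, from counts of at most 46, with an unadjusted exact permutation p of 0.0368.

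Over the 24 libraries, with each group's mean subtracted from log2(FPKM + 1), 36 pairs of members were compared, with permutation p-values (two-sided, 100000 shuffles within groups) adjusted over the pairs by Benjamini-Hochberg. Of these, 1 had an adjusted p under 0.05, the ERK phosphatases Dusp4 and Dusp6 (Pearson's r 0.69, permutation p 0.00028, adjusted 0.0101; Spearman's rho 0.643, permutation p 0.00205). It was 0.579 without the 2 libraries farthest from the median of Dusp4, and within single groups it ran from -0.192 to 0.855. Dusp7 and Dusp10 gave r = -0.62 (permutation p 0.0066, adjusted 0.119; rho -0.649, permutation p 0.00264), -0.596 without the 2 farthest libraries, and -0.822 to -0.005 within groups. These points share libraries and depth.

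Among 10475 genes with a mean of at least 1 FPKM, the genes most like each member were found by Pearson's r of log2(FPKM + 1) over the 24 libraries, as a description that includes the differences between groups. Dusp1 was most like Fos, a subunit of AP-1 (r 0.962, rho 0.904), then Egr1 (r 0.899) and Btg2 (r 0.898). With group means subtracted, Dusp1 and Fos still gave r = 0.941. Fos was at 33.7 ± 44.0 FPKM (SD, n = 6) in controls and 102 ± 53.2, 92.4 ± 50.6 and 102 ± 33.0 FPKM in the treadmill, catgut 1 and catgut 2 groups, and control replicate 2 held its highest control value, 121.0 FPKM. Dusp5 was most like LOC108348108 (r 0.885), the salt-inducible kinase Sik1 (r 0.88) and the immediate-early gene Arc (r 0.877).

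**Figure D4:**
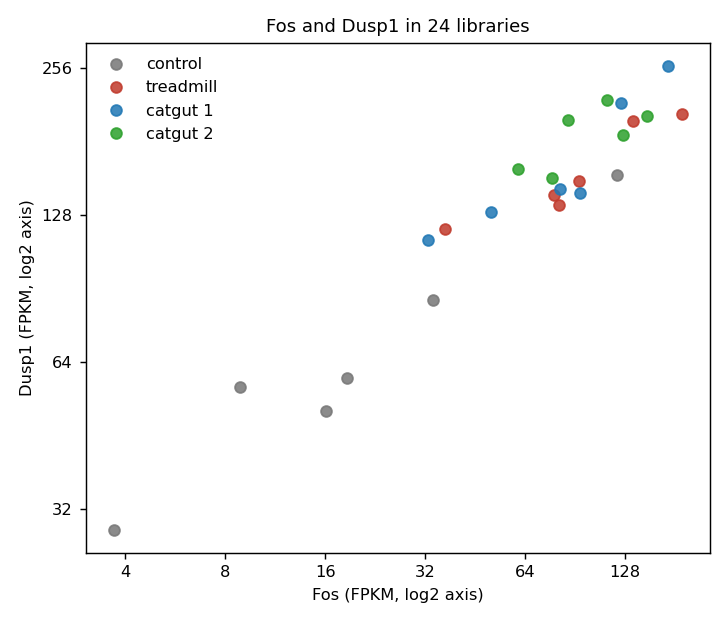
Fos (x) against Dusp1 (y), FPKM on log2 axes, 1 point per library in 4 colours for the groups. Dusp1 follows Fos across its range from 3.70 to 189.9 FPKM, and control replicate 2 (Fos 121.0, Dusp1 154.6 FPKM) sits among the trained libraries.

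The other members had different companions. Dusp6 was most like the kinase Nek6 (r 0.873), the ETS factor Etv4 (r 0.844) and the protein kinase A subunit Prkar1a (r 0.801), and Nek6 and Etv4 were also among the 3 most like Dusp4 (r 0.66 and 0.657), beside Fbrsl1 (r 0.66). Dusp7 was most like Tob2 (r 0.884), the deubiquitinase Usp2 (r 0.877) and Abhd14a (r 0.869), and Dusp10 most like Arid5a (r 0.771), Adam19 (r 0.763) and the retinoic acid receptor Rara (r 0.757). The highest values were 0.837 for Dusp16 (with Tor1aip2), 0.722 for Dusp8 (with Dot1l) and 0.654 for Dusp2 (with Prr13).

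The pathway around the phosphatases was read from lists of genes. The MAP kinases that the MKPs act on, and the kinases that activate them, did not meet the criterion in any of the 6 comparisons: 0 of 9 tested ERK, p38 and JNK genes and 0 of 7 MAP kinase kinases in edgeR. Of all genes, 1.25% to 5.95% met it per comparison, so these counts do not set the kinases apart from other genes. By unadjusted p under 0.05 there were 0 to 3 of the 9 and 0 to 2 of the 7 per comparison, against 3.26% to 16.4% of all genes. DESeq2 gave at most 1 of each at adjusted p under 0.05. The smallest p among the MAP kinases belonged to Mapk6, an atypical MAP kinase, in treadmill and catgut 2 against control (-0.20 ± 0.09 and -0.31 ± 0.09, log2 difference ± SE), to the JNK gene Mapk9 in catgut 1 against control (-0.42 ± 0.20), to the p38 genes Mapk11 and Mapk14 in catgut 1 and catgut 2 against treadmill (-0.31 ± 0.32 and -0.26 ± 0.11) and to Mapk7 between the catgut groups (0.30 ± 0.14). Map2k7, which activates JNK, had the smallest p of the MAP kinase kinases in both catgut groups against control (-0.30 ± 0.11 and -0.38 ± 0.09) and against treadmill (-0.24 ± 0.10 and -0.32 ± 0.08), with adjusted p in edgeR of 0.0797 to 0.666. Of 15 Raf and MAP3 kinase genes, Map3k6 alone met it, in the 4 comparisons of a catgut group with control or treadmill, at 1.73 ± 0.865 and 1.81 ± 0.805 FPKM in catgut 1 and catgut 2 against 0.840 ± 0.496 and 0.778 ± 0.466 FPKM in control and treadmill (SD, n = 6). In these 4 comparisons 1.13% to 3.52% of all genes met the criterion as higher. The adjusted p of Map3k6 in edgeR was 0.233 to 0.558.

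The pathway has other brakes beside its phosphatases. Of 10 tested Sprouty, Spred and related feedback inhibitors, 2 met the criterion as higher in treadmill rats (Spry4 and Errfi1), and 3 in each catgut group (Spry1, Spry4 and Errfi1), all against control. Of all genes, 1.77%, 2.32% and 3.52% did so in treadmill, catgut 1 and catgut 2. In catgut 2 the Ras regulator Rasa1 met it as lower, at 1.40 FPKM against 2.26 FPKM (2.43% of all genes). The list's median log2 fold change was 0.36, 0.45 and 0.42 in the 3 groups, against medians of all genes of -0.00, -0.01 and -0.01. Against treadmill, and between catgut groups, 0 of 10 met it (1.25% to 3.76% of all genes). There were 0 of 10 at unadjusted p under 0.05 in edgeR (3.26% to 10.7% of all genes) and 0 of 10 by DESeq2.

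Spry4, an inhibitor of receptor tyrosine kinase signalling, had 1.34, 1.70 and 2.29 FPKM as the lowest, median and highest control value, and every trained library was above these, with 2.8, 3.85 and 7.76 FPKM in treadmill, 2.53, 4.40 and 5.74 FPKM in catgut 1 and 2.70, 4.71 and 5.38 FPKM in catgut 2. Such separation upward from controls was shown by 0.325%, 0.318% and 0.724% of all genes in treadmill, catgut 1 and catgut 2. Spry4 rose by 1.43 ± 0.22 (SE) on the log2 scale in treadmill rats and by 1.33 ± 0.20 in catgut 2, with adjusted p of 0.0439 and 0.0195 in edgeR, and was at 1.29 ± 0.21 in catgut 1 with an adjusted p of 0.0816. Errfi1, an inhibitor of the EGF receptor, was at 16.3 ± 7.11 FPKM (SD, n = 6) in controls and 31.9 ± 18.2, 45.4 ± 15.1 and 42.1 ± 13.2 FPKM in the treadmill, catgut 1 and catgut 2 groups, with adjusted p of 0.478, 0.0921 and 0.0577 in edgeR.

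**Figure D5:**
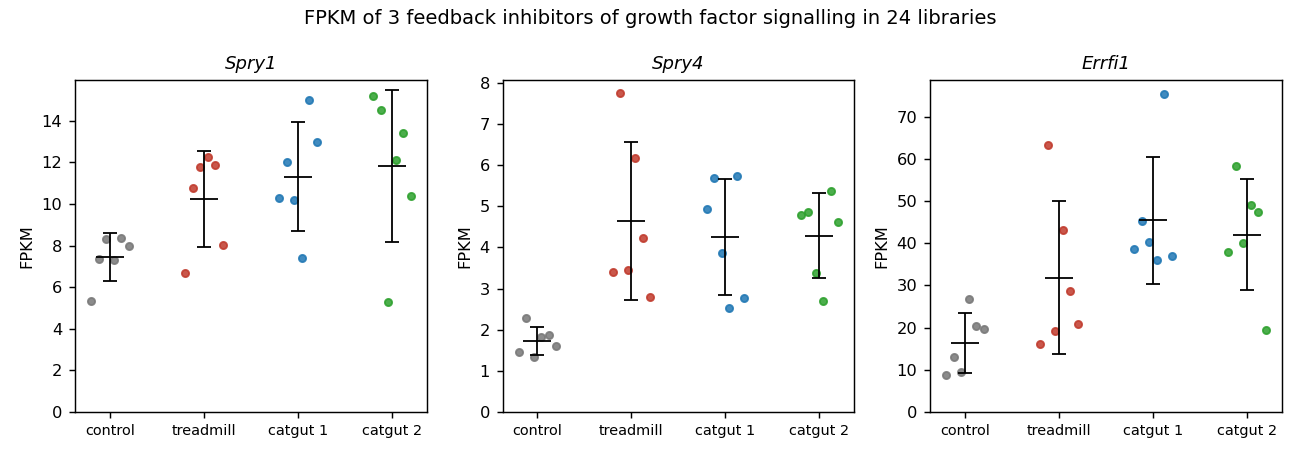
FPKM (linear axes from 0) of Spry1, Spry4 and Errfi1 in the 6 libraries of each group; points are libraries in replicate order, bars the mean ± SD. The Spry4 values of all trained libraries, from 2.53 to 7.76 FPKM, lie above the highest control value of 2.29 FPKM.

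Genes for transcription factors that ERK and stress signalling induce were listed as well. Of 24 immediate-early and ETS genes tested, 14, 14 and 15 met the criterion as higher in treadmill, catgut 1 and catgut 2 against control (1.77%, 2.32% and 3.52% of all genes). As lower there were 0 (1.08%, 2.3% and 2.43% of all genes). The list median log2 fold change was 0.97, 1.06 and 1.13, against -0.00, -0.01 and -0.01 for all genes. By adjusted p under 0.05, edgeR called 2, 0 and 5 of the 24, against 0.0542%, 0.0203% and 0.508% of all genes. DESeq2, which made more false calls than edgeR in simulated data, gave 9, 12 and 13, with no share of all genes given beside these counts. In treadmill rats Egr3 rose by 3.38 ± 0.44 and Ier2 by 1.57 ± 0.24 (SE, log2 scale), with adjusted p of 0.0164 and 0.0439 in edgeR. In catgut 2 Egr3 rose by 2.79 ± 0.46, Nr4a1 by 1.46 ± 0.26, Nr4a2 by 3.15 ± 0.59 and Egr1 by 2.57 ± 0.50, with adjusted p of 0.0246, 0.0375, 0.0417 and 0.0447. In catgut 1 against treadmill, 1 of 24 met the criterion as lower, Ier2, against 1.99% of all genes, and 0 as higher (1.13%). In catgut 2 against treadmill 0 of 24 met it (3.76% of all genes), with 2 at unadjusted p under 0.05 in edgeR (10.7% of all genes) and 0 by adjusted p in DESeq2. Between the catgut groups 0 of 24 met it (1.25% of all genes), with 0 at unadjusted p under 0.05 in edgeR (3.26%) and 0 in DESeq2. In catgut 1 against control the smallest p was that of Nr4a1, at 1.51 ± 0.30 with an adjusted p of 0.141.

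Of the other phosphatases, 6 non-Dusp and related MAP kinase phosphatases were tested and Ptprr, which acts on ERK, met the criterion as higher in catgut 2, at 1.80 ± 0.622 FPKM against 1.12 ± 0.372 FPKM in control and 1.01 ± 0.336 FPKM in treadmill libraries (SD, n = 6). Of 15 atypical dual-specificity phosphatases, which mostly act on other substrates, Dupd1 met it as lower in catgut 2 against control, at 10.4 ± 3.98 against 18.8 ± 8.65 FPKM (SD, n = 6). Of 10 kinases activated by MAP kinases, Rps6ka5 met it as lower in catgut 2, at 0.768 FPKM against 1.43 FPKM in control and 1.27 FPKM in treadmill libraries. In catgut 2, 3.52% and 1.96% of all genes met it as higher against control and treadmill, and 2.43% and 1.79% as lower.

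Clock genes met the criterion in the comparisons in which Dusp7 did. Of 17 tested, 7 met the criterion as higher and 2 as lower in catgut 1 against treadmill, and 8 and 3 in catgut 2 against treadmill. Of all genes, 1.13% and 1.99% did so in catgut 1, and 1.96% and 1.79% in catgut 2. Against control, 5 met it as lower in treadmill, 0 in catgut 1 and 1 as lower in catgut 2 (1.08%, 2.3% and 2.43% of all genes as lower). Per2, a core clock repressor, was at 2.10 ± 0.907 FPKM in treadmill against 8.96 ± 2.53 and 9.80 ± 2.27 FPKM in catgut 1 and catgut 2 (SD, n = 6). Per2 rose by 2.06 ± 0.27 and 2.19 ± 0.27 (SE, log2 scale), with adjusted p of 0.0188 and 0.00691 in edgeR. Cry2 rose in both as well (0.52 ± 0.08 and 0.57 ± 0.08, adjusted p 0.0377 and 0.0152), and in catgut 2 Arntl fell by 2.37 ± 0.26 and Npas2 by 2.51 ± 0.44 (adjusted p 0.00494 and 0.0427 in edgeR). The time of day of sampling is not given in the sources used here, so clock time and the groups cannot be told apart. Of 15 glucocorticoid-responsive genes, 4 met the criterion as higher in catgut 1 and 2 in catgut 2 against treadmill (1.13% and 1.96% of all genes). There Fbxo32, a ubiquitin ligase of muscle atrophy, met it as lower in catgut 2 (30.6 against 75.4 FPKM, 1.79% of all genes). The smallest p was that of Tsc22d3 in catgut 1 (115 against 59.8 FPKM, adjusted p 0.00901 in edgeR) and of Klf15 in catgut 2 (24.9 against 15.6 FPKM, adjusted p 0.0580). Between the catgut groups 2 of the 15 met the criterion as lower in catgut 2, against 0.345% of all genes. These were Fbxo32 (30.6 against 57.9 FPKM) and Cebpd (38.3 against 59.0 FPKM). Against control, 2, 4 and 2 of the 15 met the criterion as higher in treadmill, catgut 1 and catgut 2 (1.77%, 2.32% and 3.52% of all genes). Fbxo32 met it as lower in catgut 2 (2.43% of all genes). Errfi1, given above as a feedback inhibitor, is also in this list and was higher in all 3. The part of the clock and glucocorticoid-responsive genes in the Dusp1, Dusp5 and Dusp7 results was not tested.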

How the data were processed

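Poly(A) RNA of 24 quadriceps libraries was sequenced as paired ends by the authors. The deposited table gives a count and an FPKM value per gene and library; per the labels' processing notes, HISAT2 2.0 and StringTie 1.3.0 were used. Genome build and counting tool are not given in the sources used here. The deposited counts are whole numbers, commonest at 4 and 8, and 99.3% of values lay within 2% of a constant count per FPKM for their gene and library, over genes with a mean count of at least 100. Deposited FPKM served for levels and ratios. Groups came from the labels' treatment field; the labels do not tie libraries to rats, so p-values measure the spread between libraries. The labels' extraction text also speaks of an adipose type, while muscle fibre markers led in every library. The table had 0 value columns of unknown sample.

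Each pair of groups was fitted alone with edgeR 4.0.16 (R 4.3.3) on the counts, with TMM and the quasi-likelihood test, for the 14772 genes that averaged 0.1 FPKM or more, and p was adjusted over all of them by Benjamini-Hochberg. SE was the absolute log2 fold change over the root of F. The exact permutation test of log2(FPKM + 1) was two-sided. The code was tested on simulated counts of treadmill against control with 200 changed genes. At adjusted p under 0.05, edgeR recovered 60 of the 2-fold and 94 of the 4-fold changes with 9 false calls. limma recovered 59 and 93 with 12 false calls, and DESeq2 73 and 95 with 49. DESeq2 calls are therefore the least strict of the 3. Alternatives used DESeq2 1.42.0, limma 3.58.1, other filters and scalings, a replicate block, Y-linked level as a covariate and leaving out libraries. Members, lists and tests were chosen with earlier results of these data known. All members were named in each comparison. From each gene list the text may name genes with adjusted p under 0.05 (at most the 4 with the smallest p), or, where there were none, the gene with the smallest p, and genes meeting the criterion where 5 or fewer did. The 3 genes with the highest r were named as most like each member.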

Additional observations from a re-analysis of the deposited data

Results flagged for a closer look

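Dusp7 in control replicate 1, at 4.343 FPKM, lay far from the other 5 control libraries, which had 8.73 to 12.3 FPKM. The gap was 0.658 of the group's whole range. Of 36 pairs of member and group examined, about 1.8 would be set apart by chance alone. Without that library the log2 fold change of Dusp7 in catgut 1 against control was 0.40.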

How the results depend on the processing

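Over the 6 comparisons, 249 of the recomputed counts of members stayed within 1.5 times the reported count and 37 did not, and no fold change of a member with an unadjusted p under 0.05 changed direction. With only genes of mean FPKM at least 1 tested, which drops Dusp5, Dusp4 and Dusp2, the members meeting the criterion were 2 in place of 4 in treadmill against control, 1 in catgut 1 against control and 1 in catgut 2 against control, where 0 had an adjusted p under 0.05. DESeq2 gave 2 members with adjusted p under 0.05 in treadmill against control, 1 in catgut 1 against control, 2 in catgut 2 against control, 2 in catgut 1 against treadmill and 2 in catgut 2 against treadmill. A fit over all 4 groups gave 1, 1 and 2 in the comparisons with control, and limma with a pseudocount of 1 or 0.1 gave 2 in catgut 2 against control. The exact test gave 0 there. Between the catgut groups, limma (both pseudocounts) and the exact test let 1 member, Dusp2, meet the criterion. The cause of these differences between tools was not tested.

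The deviations of same-numbered libraries from their group means correlated at -0.492 to 0.283, and in none of the comparisons was every pair over 0.1, so the replicate numbers were not taken as pairs. With the replicate block, 0 members had an adjusted p under 0.05 in catgut 2 against control, and no other count of members moved by over 1.5 times. Leaving out the 5 libraries with liver transcripts, chosen after seeing the data, gave 2 members meeting the criterion in treadmill against control (Dusp4 and Dusp10 lost), 1 in catgut 1 against treadmill and 1 in catgut 2 against treadmill (Dusp10 lost in both), and 2 with an adjusted p under 0.05 in catgut 2 against control. The fits with the treadmill group then hold only 2 treadmill libraries, so liver transcripts and fewer libraries cannot be told apart.

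With each library left out in turn, the members meeting the criterion numbered 2 to 4 in treadmill against control (2 without treadmill replicate 2), 2 to 3 in each catgut group against control, 1 to 2 in catgut 1 against treadmill (1 without catgut 1 replicate 4 or treadmill replicate 2), 1 to 3 in catgut 2 against treadmill (1 without catgut 2 replicate 1, 3, 4, 5 or 6 or treadmill replicate 2 or 6) and 0 to 1 between the catgut groups (Dusp5, without catgut 1 replicate 2). Members with adjusted p under 0.05 numbered 0 to 1 in treadmill against control (Dusp1, without control replicate 2) and 1 to 2 in catgut 2 against control (Dusp1 added without catgut 2 replicate 4 or control replicate 2). Counts of Dusp2, Dusp4 and Dusp5 are low. Even a difference larger than its SE, as for Dusp4 in catgut 1 against control (0.58 ± 0.32, log2 scale), had an unadjusted p of 0.0956 in edgeR. Differences of about the size of their SE could therefore not be told from 0.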
